A study of Mus musculus with 5 samples.

Results

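ES-like cells that had been reverted from Akt-spheres were compared with the sphere culture they came from, with 1 expression array for each. The spheres are cells that mouse embryonic stem (ES) cells form when the kinase Akt is switched on, and the study describes them as resembling primordial germ cells. The comparison takes 2 of the study's 5 arrays. It asks which genes separate the sphere state from the ES-like state that the same line returned to. The 2 arrays of line 21 ES cells stand beside it as values, and the spheres of line 42 were left out because they come from another ES cell line.

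All 4 line 21 cultures share a male 129 background, the feeder-free ES cell line E14tg2a as their origin, and the transgene myr-Akt-Mer. This is a membrane-anchored form of Akt fused to an oestrogen receptor part, whose kinase activity depends on 4-hydroxytamoxifen (4OHT), used at 1 µM. The ES cells were kept without feeders, either without or with 4OHT. The spheres were induced and expanded with 4OHT on OP9 stromal cells, with 4OHT started 3 days before induction and passages every 4 days, and the OP9 cells were removed by letting them attach to a dish for 30 minutes. The reverted cells were obtained on mouse embryonic fibroblast feeders after a transient exposure to 4OHT. The labels do not say whether 4OHT was present when their RNA was taken. Feeder layer, medium and 4OHT exposure therefore cannot be told apart in the comparison, and line 21 is a single line. The Akt1 probe read 123 in the spheres and 98.6 in the reverted cells, which does not check the transgene, since the probe's place in the gene is not given.

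Mouse ES cells hold a naive pluripotent state through a network of transcription factors that the cytokine LIF supports through the signal transducer Stat3. When they leave it they pass through a primed, epiblast-like state, from which primordial germ cells are set aside under BMP signals. Primordial germ cells keep part of the pluripotency network running and, when taken into ES cell culture, can convert to a pluripotent cell type. Akt signalling is known to favour that conversion.

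The deposited values are linear probe intensities that share a median of 50 on every array. A difference is reverted minus sphere on the log2(intensity + 1) scale, with each array centred at the median of those probes that held a value on all 5 arrays, so 1 unit is a 2-fold difference. Of 16032 genes, 14270 had a value on both arrays and 10034 of these were bright enough on at least 1 of them to be compared. With 1 array in each group there is no replicate check and no test, so genes past a fold were counted. In the reverted cells 944 genes were at least 2-fold higher (9.41% of the genes compared) and 761 were at least 2-fold lower (7.58%). At 4-fold, 301 were higher (3.00%) and 191 were lower (1.90%), and the median difference over all genes was 0.01. The only repeat measure within the pair of arrays comes from 83 genes with several bright probes, whose probes lay a median of 0.42 log2 units apart. In 17 of these genes (20.5%) the probes lay 1 unit or more apart, so a single difference close to 2-fold carries little weight. Larger differences were not exempt: the Pla2g1b probes showed 6.34 and 0.38, and the Stt3b probes 2.39 and 0.32. Of the 25 genes with at least 1 probe past 2-fold, 3 had all their probes past it in the same direction and 0 had probes past it in both.

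Other pairs of line 21 arrays put the size of the comparison in scale. ES cells with and without 4OHT were at least 2-fold apart at 4.95% of their genes, and reverted cells and spheres at 17.0%, or 1705 of 10034 genes. Reverted cells were that far from ES cells without 4OHT at 11.5% of genes and from ES cells with 4OHT at 15.5%. For the spheres these shares were 22.6% and 26.5%. The pairs share arrays, so each share describes its own pair.

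**Figure D1:**
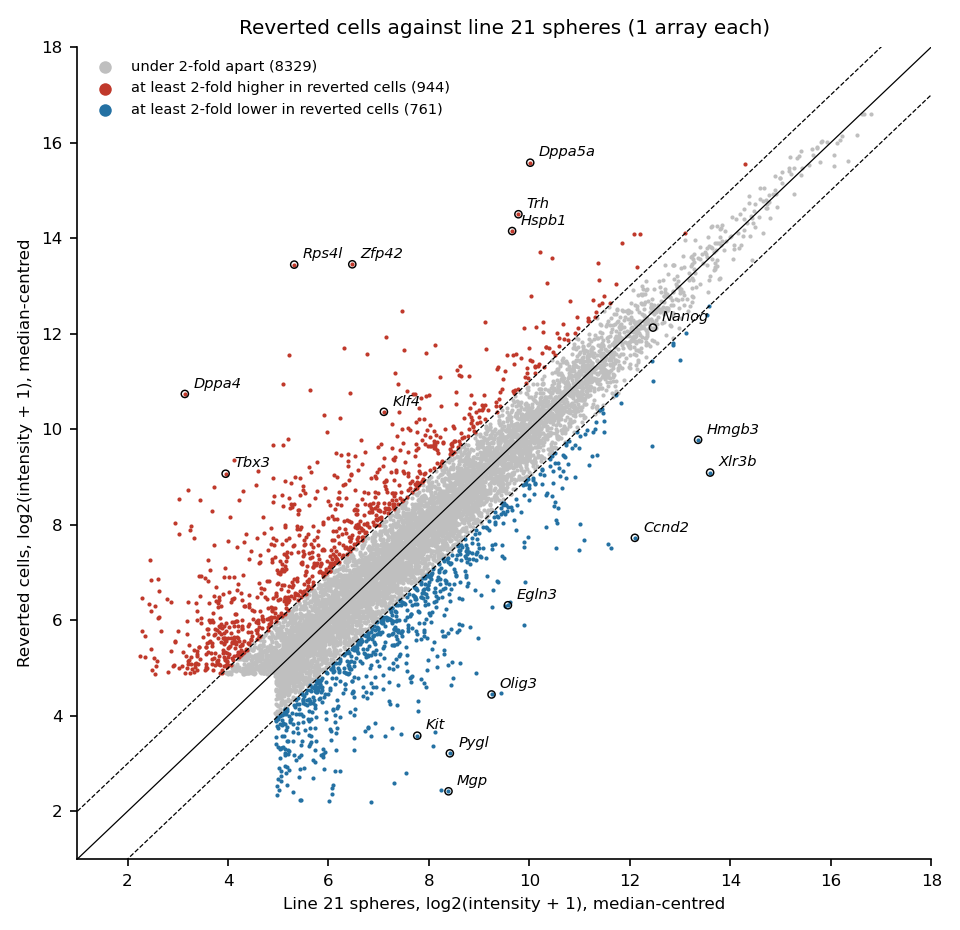
Each point is 1 of the 10034 genes compared, with its median-centred log2(intensity + 1) in line 21 spheres on the x axis and in reverted cells on the y axis, 1 array each. The solid line marks equal values and the dashed lines a 2-fold difference; 944 genes lie above the band (red) and 761 below it (blue), with Zfp42 and Dppa4 far above, Nanog inside, and Mgp and Xlr3b far below.

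The naive and core pluripotency genes had the highest median differences of the 36 gene lists examined, and most of their members were brighter in the reverted cells. Of 17 core pluripotency genes compared, 12 were at least 2-fold higher and 0 lower, with a median difference of 2.00. Of 18 naive pluripotency genes, 13 were higher and 0 lower, with a median of 2.48. Over all genes the shares were 9.41% and 7.58% and the median 0.01. The counts of every list below are to be read against these shares. Below, 2 values given for the ES cells are those without and then with 4OHT.

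Dppa4, a chromatin protein of pluripotent cells, read 7.65 in the spheres and 1733 in the reverted cells, and 4619 and 4803 in the ES cells. Its partner Dppa2 read 11.6 in the spheres and 315 in the reverted cells, and 760 and 1562 in the ES cells. Zfp42 (Rex1), the classic reporter gene of naive ES cells, read 86.1 in the spheres and 11370 in the reverted cells, against 14177 and 15996 in the ES cells. The 3 genes differed by 7.60, 4.60 and 6.98 log2 units, and the reverted cells stood well above the spheres but under both ES cell arrays for each.

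Dppa5a, which encodes an RNA-binding protein of ES cells, read 1014 in the spheres and 49687 in the reverted cells, beside 58362 and 51355 in the ES cells. Nr0b1 (Dax1), a nuclear receptor, read 106 in the spheres and 3105 in the reverted cells, beside 4210 and 4854. Eras, the Ras-like protein of ES cells that drives phosphoinositide 3-kinase, read 57.9 and 1284, beside 2189 and 1189. These 3 genes were far dimmer in the spheres, and for each of them the other 3 arrays lay within 2-fold of one another.

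The naive transcription factors Tbx3, Klf4, Klf5, Klf2 and Nr5a2 were also dimmest in the spheres. Tbx3 read 14.2 in the spheres and 544 in the reverted cells, a difference of 5.11, with 322 and 660 in the ES cells. Klf4 read 134 and 1336, a difference of 3.26, with 1573 and 1090 in the ES cells, and Klf5 read 97.5 and 882, a difference of 3.11, with 613 and 789. Klf2 read 228 and 890 and Nr5a2 read 234 and 1209, and for Klf5, Klf2 and Nr5a2 the reverted cells were the brightest of the 4 arrays. Esrrb was dim on every array, at 7.96 in the spheres and 31.7 in the reverted cells, and its 2-fold call was lost with a pseudocount of 16.

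Part of the network did not follow this pattern. Nanog, the homeodomain factor at the centre of the naive state, read 5523 in the spheres and 4538 in the reverted cells, a difference of -0.33, beside 5480 and 3839 in the ES cells. The spheres' value was as high as that of the ES cells without 4OHT. Prdm14, a repressor shared by ES cells and germ cells, read 205 in the spheres and 151 in the reverted cells, a difference of -0.48. Zfp281, Rif1, Sall4, Gbx2 and Pecam1 also stayed under 2-fold, between -0.17 and 0.33. Tfcp2l1 differed by 0.40 and Utf1 by 0.97.

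Tcl1, a small protein that binds and activates Akt, read 40.9 in the spheres and 321 in the reverted cells, and 928 and 1146 in the ES cells. Tdgf1 (Cripto), the co-receptor of Nodal, read 4263 and 17662, beside 17604 and 12375. Fbxo15 read 738 and 3026, beside 6165 and 6086, and Fgf4, the growth factor that ES cells make for themselves, read 18.3 and 124, beside 278 and 362. Tcl1, Fbxo15 and Fgf4 thus read between the spheres and the ES cells, whereas Tdgf1 reached the ES cells' level. Manba, Mras and Jam2 of the naive list were also higher in the reverted cells, by 4.77, 2.86 and 2.66.

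**Figure D2:**
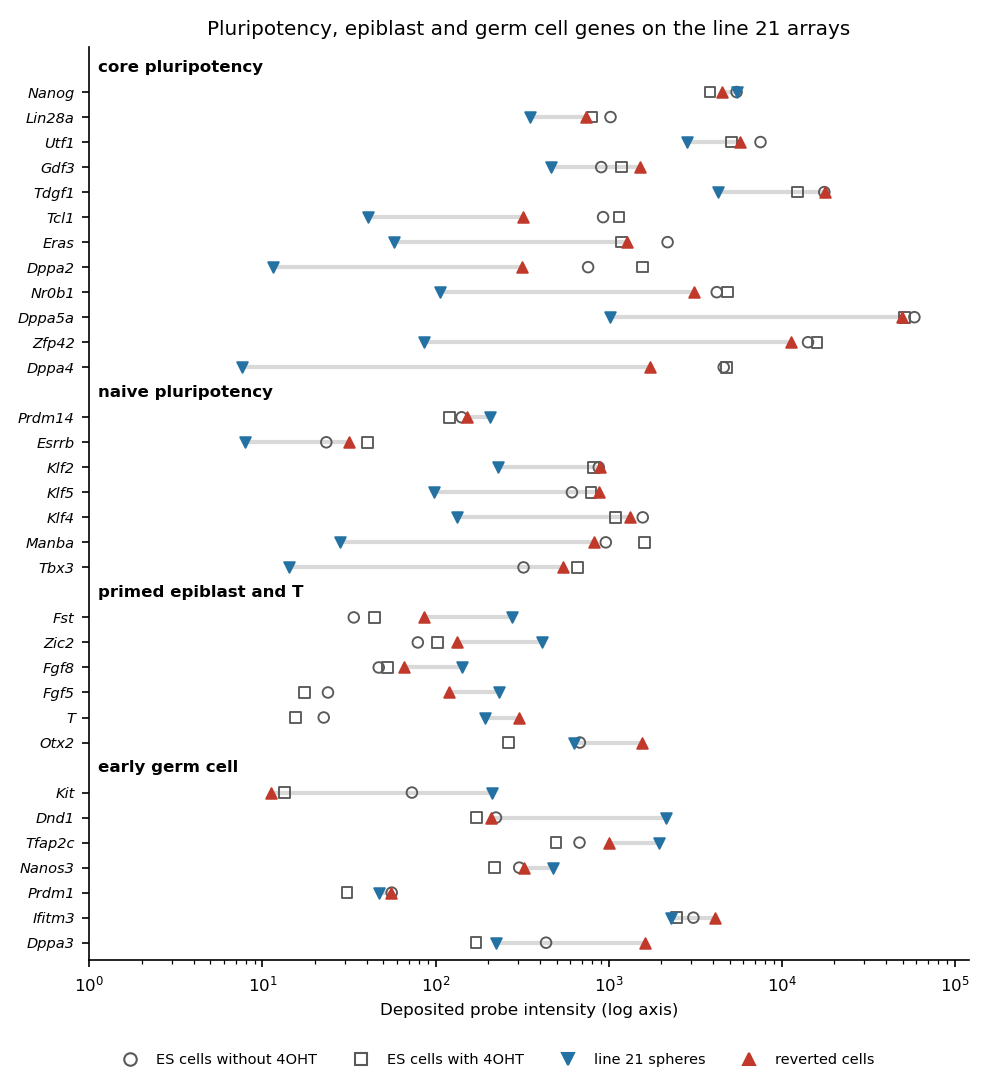
Deposited probe intensity (log axis) on the 4 line 21 arrays for pluripotency, primed epiblast and early germ cell genes, with a symbol for each array; the grey bar joins spheres and reverted cells. The reverted cells sit with the ES cells for Zfp42, Dppa5a, Klf4 and Tbx3, all 4 arrays sit together for Nanog, and the spheres sit alone at the bright end for Dnd1 (2143 against 208 in reverted cells).

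The primed epiblast list leaned the other way. Of 13 genes compared, 2 were at least 2-fold higher in the reverted cells and 6 lower, with a median of -0.93. Fst, which binds activin, read 277 in the spheres and 85.6 in the reverted cells, and the zinc finger factor Zic2 read 413 and 132. Lef1, Sfrp2 and Fgf8 were lower by more than 2-fold, with differences of -1.29, -1.17 and -1.14. Fgf5, a marker of the primed epiblast, read 232 in the spheres and 119 in the reverted cells, a difference of -1.01, beside 23.9 and 17.5 in the ES cells. The reverted cells' Fgf5 value stood well above both ES cell arrays. The 2-fold calls of Lef1, Fgf8 and Fgf5 were lost with a pseudocount of 16, and that of Fgf5 also without centring. Lef1 was too dim to compare with a stricter filter on dim probes.

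The 2 members on the high side were Otx2 and Dnmt3b. Otx2, a homeodomain factor of the epiblast, read 634 in the spheres and 1549 in the reverted cells, beside 681 and 263 in the ES cells. T (brachyury), a T-box factor of the primitive streak, read 193 in the spheres and 305 in the reverted cells, beside 22.6 and 15.5 in the ES cells. T thus separated both sphere-derived cultures from the ES cells and not the pair from each other. Of 9 Nodal pathway genes 3 were higher (Inhba, Tdgf1 and Gdf3) and 1 lower (Fst), while the ligand Nodal and its inhibitor Lefty1 differed by 0.41 and -0.01.

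Early germ cell genes went both ways. Of 17 compared, 2 were at least 2-fold higher in the reverted cells (11.8%) and 3 lower (17.6%), beside 9.41% and 7.58% of all genes, and the median was -0.08. Kit, the receptor that germ cells need to survive and migrate, read 213 in the spheres and 11.2 in the reverted cells, a difference of -4.18, beside 73.0 and 13.4 in the ES cells. Dnd1, an RNA-binding protein required by germ cells, read 2143 in the spheres and 208 in the reverted cells, a difference of -3.41, beside 223 and 172. Kit and Dnd1 were brightest in the spheres of all 4 arrays.

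Tfap2c, a transcription factor of germ cell specification, read 1943 in the spheres and 999 in the reverted cells, beside 678 and 497 in the ES cells. Its difference of -1.01 passed under 2-fold without centring or with a pseudocount of 16. Nanos3, which protects germ cells, read 476 and 326, a difference of -0.60. Prdm1 (Blimp1), the repressor that starts the germ cell programme, read 47.4 and 55.2, a difference of 0.17, and Ddx4 (Vasa) read 385 and 470. None of these 4 lay clearly past 2-fold.

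Dppa3 (Stella), which protects methylated DNA in germ cells and the egg, stood on the high side instead. It read 223 in the spheres and 1626 in the reverted cells, a difference of 2.81, beside 435 and 171 in the ES cells, so the reverted cells were the brightest of the 4 arrays. Ifitm1 (fragilis2), an early germ cell surface gene, read 3623 and 15447, beside 17679 and 4764. Ifitm3 differed by 0.80 and Alpl, the tissue-nonspecific alkaline phosphatase, by 0.40. Dazl was too dim to compare, at 6.71 in the spheres and 25.6 in the reverted cells.

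Later germ cell and meiosis genes split in both directions. Of 17 compared, 6 were at least 2-fold higher in the reverted cells and 4 lower, with a median of 0.14, which read 0.36 with empty cells filled in. Morc1, which silences transposons in the male germ line, read 32.3 in the spheres and 827 in the reverted cells, beside 1507 and 1401 in the ES cells. Sycp3, a part of the synaptonemal complex, read 33.7 and 487, beside 752 and 742. Zp3, a coat protein of the egg, read 19.2 and 227, and Tdrd12, of the piRNA pathway, read 68.1 and 737. These genes were bright in ES cells and reverted cells and dim in the spheres.

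Mael and Gtsf1, also of the piRNA pathway, were higher by 2.10 and 1.26. Smc1b, Tdrd7, Tdrd5 and Stag3 were on the low side, with differences of -1.91, -1.78, -1.36 and -1.18. The letters CACGTG, the E-box that Myc, Max and related factors recognise, were looked for in the 250 bases before each gene's start after the values had been seen. They lay in 14 of the 30 promoters of the list found in the RefSeq table (46.7%) and in 8.53% of the promoters of all genes compared. In the promoters of all genes at least 2-fold higher in the reverted cells the share was 7.67%. All 4 lower members of the list had a promoter in the table and 1 held the letters. Among the 6 higher members, 5 had a promoter in the table and 3 of these held the letters. Their promoters are shown 5′ to 3′ with the E-box in capitals, from RefSeq on build GRCm38.p6: Sycp3 at chr10:88459337-88459586 on the plus strand, Zp3 at chr5:135979855-135980104 on the plus strand, and Mael at chr1:166238745-166238994 on the minus strand.
Sycp3: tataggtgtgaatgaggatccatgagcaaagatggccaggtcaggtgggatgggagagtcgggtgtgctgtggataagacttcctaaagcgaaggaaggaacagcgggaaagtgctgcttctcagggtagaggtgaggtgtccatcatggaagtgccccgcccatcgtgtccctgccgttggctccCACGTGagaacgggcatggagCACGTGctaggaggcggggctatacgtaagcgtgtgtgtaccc
Zp3: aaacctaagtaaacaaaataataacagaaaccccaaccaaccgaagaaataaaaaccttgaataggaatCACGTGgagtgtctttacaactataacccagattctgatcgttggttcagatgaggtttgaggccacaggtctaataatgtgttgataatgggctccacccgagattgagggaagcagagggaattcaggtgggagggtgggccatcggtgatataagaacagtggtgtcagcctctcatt
Mael: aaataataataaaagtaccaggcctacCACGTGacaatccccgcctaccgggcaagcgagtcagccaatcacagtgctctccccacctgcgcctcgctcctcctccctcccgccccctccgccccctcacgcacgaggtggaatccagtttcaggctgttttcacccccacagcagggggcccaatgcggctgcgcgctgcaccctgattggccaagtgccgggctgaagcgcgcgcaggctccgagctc
Sycp3 holds the letters at 2 places, which begin 64 and 43 bases before the start. CACGTG reads the same on both strands. A match of letters is a description and does not show binding.

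Genes of the egg and of the egg-like state of ES cells showed a mixed picture. Ooep, a part of the subcortical maternal complex of the egg, read 32.5 in the spheres and 2013 in the reverted cells, a difference of 5.86, beside 3172 and 2845 in the ES cells. Khdc3, of the same complex, was too dim to compare at 10.8 and 20.2, although the ES cells read 551 and 294. Zscan4c, which a small share of ES cells express in bursts, read 1058 and 1347 in the ES cells, 3.59 in the spheres, and had no value in the reverted cells. Only 4 of the 16 genes of this list on the array were bright enough to compare.

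Stat3 and several genes known as targets of LIF and Stat3 were brighter in the reverted cells. Of 15 genes of the list compared, 8 were at least 2-fold higher and 0 lower, with a median of 1.15. Stat3 read 57.2 in the spheres and 262 in the reverted cells, beside 256 and 315 in the ES cells. Myc read 38.2 and 194, beside 296 and 190, and the kinase Pim1 read 154 and 499. Bcl3, Pim3, Mycn and Junb were higher by 1.68, 1.38, 1.24 and 1.15. The receptor subunit Il6st differed by 0.91 and the feedback inhibitor Socs3 by 0.44, both under 2-fold. The kinases Jak1, Tyk2 and Jak2 also stayed under 2-fold, with Jak2 on the low side at -0.87, as did Tfcp2l1 and Gbx2, and Lifr was too dim to compare.

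The BMP genes went both ways, with 5 of 17 higher (29.4%) and 3 lower (17.6%). Bmp4, the ligand that induces germ cells in the embryo, read 75.5 in the spheres and 462 in the reverted cells, beside 903 and 888 in the ES cells. Bmp8b, which acts with Bmp4, differed by 2.76 but from a low level, 6.92 in the spheres and 54.7 in the reverted cells. Bmp7 stood opposite, with 209 in the spheres and 47.9 in the reverted cells. Of the targets, Id4 read 81.6 and 655 and Id1 read 2730 and 6515, both brightest in the reverted cells, whereas Msx2 read 365 and 122.

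Wnt genes compared numbered 23, with 4 higher (17.4%) and 5 lower (21.7%). The ligands Wnt4 and Wnt6 read 5.05 and 36.2 in the spheres and 98.8 and 351 in the reverted cells, where they were the brightest of the 4 arrays. The receptor Fzd2 read 245 in the spheres and 30.4 in the reverted cells, a difference of -3.02, beside 36.8 and 34.0 in the ES cells. In the FGF list, 5 of 16 were higher (31.2%) and 4 lower (25%). The feedback inhibitors Spry2, Spry4 and Spry1 and the immediate early gene Egr1 were on the high side, by 1.79, 1.73, 1.18 and 2.60. The receptor Fgfr2 and Spred1, another feedback inhibitor, were on the low side, by -2.50 and -1.47. Dusp6, Dusp4, Etv5 and Etv4 stayed under 2-fold, between 0.34 and 0.64.

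Of 22 genes of the Akt and phosphoinositide 3-kinase pathway, 5 were at least 2-fold higher in the reverted cells and 0 lower, with a median of 0.08. Besides Eras and Tcl1 these were Irs2, the insulin receptor substrate, Inpp5d (Ship1), a lipid phosphatase that opposes the kinase, and Igf1r, the receptor for insulin-like growth factor. Irs2 read 89.0 in the spheres and 702 in the reverted cells, beside 280 and 118 in the ES cells. Igf1r read 29.7 and 133, beside 58.2 and 22.8. The adaptor Gab1, which links receptors to the kinase and was looked up after the values were seen, read 137 and 3946, a difference of 4.79, beside 3059 and 3605. The core kinases and their regulators stayed under 2-fold, with Akt2 at 0.18, Pdpk1 at 0.05, Mtor at -0.01 and Foxo1 at -0.49.

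Part of the genes that respond to low oxygen were brighter in the spheres. Of 28 hypoxia genes compared, 12 were at least 2-fold lower in the reverted cells (42.9%), 0 were higher and 16 stayed under 2-fold. The median was -0.82, which read -1.24 with a stricter filter on dim probes. Egln3 and Egln1, prolyl hydroxylases that mark the factor Hif1a for destruction and are themselves its targets, read 745 and 269 in the spheres and 79.8 and 83.9 in the reverted cells. The peptide hormones Apln and Adm read 224 and 279 in the spheres and 26.7 and 37.7 in the reverted cells. Ankrd37 read 368 and 53.5, and the oxidase Ero1a of the endoplasmic reticulum read 931 and 201, the ES cells reading 200 and 205. The ES cells read 92.1 and 28.0 for Egln3, 56.9 and 27.4 for Ankrd37, 9.59 and 4.19 for Apln and 13.2 and 27.4 for Adm. The reverted cells thus lay close to the ES cells without 4OHT for Egln3, Ankrd37 and Ero1a, and above both ES cell arrays for Apln and Adm.

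Car12, Vegfa, Hif3a, Stc2, Pfkfb3 and P4ha2 made up the rest of the 12, with differences from -2.05 to -1.24. Hif1a itself differed by 0.43, Vhl, which removes it, by -0.36, and Kdm3a and Mxi1, known targets, by 0.05 and 0.08. Bhlhe40, also of the list, lay highest, with 145 in the spheres and 298 in the reverted cells, a difference of 0.98. Among 24 glycolysis genes 0 were higher and only Pdk3 was lower, by -1.12, with a median of -0.16. Pgk1 read 19133 in the spheres and 17067 in the reverted cells and Ldha read 23858 and 22528. The glycolytic enzymes, which are also known to respond to low oxygen, therefore did not share the difference of Egln3 and Adm.

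The response element of hypoxia-inducible factors has the core ACGTG or GCGTG. These letters were searched on both strands in the 250 bases before the start, where ACGTG overlaps the E-box CACGTG. All 12 lower genes had a promoter in the RefSeq table and 9 held a core (75%), against 56.1% of the promoters of all genes compared. ACGTG alone lay in 6 of the 12 (50%) and in 21.9% of the promoters of all genes compared. The shares were about the same in the whole hypoxia list, 75.9% for either core and 48.3% for ACGTG, and the glycolysis list, of which 1 member differed, had 73.1% and 38.5%. The letters therefore did not set the lower members apart from the rest of the list. The promoters of Egln3, Adm, Ankrd37 and Ero1a are shown 5′ to 3′ with the core, or its reverse complement, in capitals, since these are the members with the lowest values relative to the spheres among those that hold it. On build GRCm38.p6 they lie at chr12:54203875-54204124 on the minus strand, chr7:110627407-110627656 on the plus strand, chr8:45999851-46000100 on the minus strand and chr14:45318573-45318822 on the minus strand, in that order.
Egln3: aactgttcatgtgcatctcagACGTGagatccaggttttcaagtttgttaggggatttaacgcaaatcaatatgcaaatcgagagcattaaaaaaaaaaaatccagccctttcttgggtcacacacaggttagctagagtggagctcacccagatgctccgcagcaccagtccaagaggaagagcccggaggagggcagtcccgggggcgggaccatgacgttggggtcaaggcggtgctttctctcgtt
Adm: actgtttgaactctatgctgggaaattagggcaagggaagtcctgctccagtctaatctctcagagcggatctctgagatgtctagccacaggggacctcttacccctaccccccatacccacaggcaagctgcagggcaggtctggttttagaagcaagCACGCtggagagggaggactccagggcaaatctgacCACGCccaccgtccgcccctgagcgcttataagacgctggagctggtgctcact
Ankrd37: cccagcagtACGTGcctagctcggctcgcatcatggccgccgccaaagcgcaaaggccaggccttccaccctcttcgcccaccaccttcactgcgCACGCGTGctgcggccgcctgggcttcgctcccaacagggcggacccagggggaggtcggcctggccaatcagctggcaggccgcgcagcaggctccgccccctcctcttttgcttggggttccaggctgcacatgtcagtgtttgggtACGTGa
Ero1a: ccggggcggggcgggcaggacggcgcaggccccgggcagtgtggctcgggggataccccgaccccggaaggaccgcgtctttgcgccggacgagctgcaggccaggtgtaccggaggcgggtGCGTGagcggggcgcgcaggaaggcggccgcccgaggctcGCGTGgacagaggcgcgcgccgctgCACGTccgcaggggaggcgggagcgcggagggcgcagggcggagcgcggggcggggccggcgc
Ankrd37 holds a core at 4 places, Ero1a at 3, Adm at 2 and Egln3 at 1. Apln, Car12 and Vegfa hold none in this window, which says only that these letters are not within it.

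Genes of the lipid droplet and glycogen list went both ways. Of 27 compared, 5 were at least 2-fold higher in the reverted cells (18.5%), 8 were lower (29.6%) and 14 stayed under 2-fold. The median was 0.04, which read -0.66 with a stricter filter on dim probes. Pygl, the liver form of glycogen phosphorylase, read 334 in the spheres and 8.42 in the reverted cells, a difference of -5.20, beside 9.41 and 13.0 in the ES cells. Mogat2, which makes diacylglycerol for storage, read 2967 and 194, beside 78.0 and 60.5. Fitm1, which packs fat into droplets, read 153 and 5.10, and Dgat2, the last enzyme of triglyceride synthesis, read 234 and 55.5. All 4 genes were brightest in the spheres. Pygl was the only glycogen gene compared that passed 2-fold, while Pygb, Pygm, Gbe1 and Gys1 differed by 0.963, 0.525, 0.338 and -0.657.

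The droplet coat protein Plin2 stood on the other side, with 41.2 in the spheres and 243 in the reverted cells. Cidea and Fabp3, which act at droplets and in fatty acid transport, were higher by 2.48 and 2.75, and Plin3 and Agpat2 by 1.64 each. Fabp4 and Lpl, which belong to fat cells, read 183 and 325 in the spheres and 6.07 and 52.7 in the reverted cells. The 7 fat cell markers summed to 742 in the spheres and 267 in the reverted cells, and to 350 and 528 in the ES cells. Adipoq, which defines fat cells, read 12.2 in the spheres and 3.67 in the reverted cells, and Pparg read 15.3 in the spheres and was empty in the reverted cells. Both were too dim to compare, and Pparg read 4.05 and 29.3 in the ES cells. The remaining markers Cebpa, Plin1 and Cd36 read 176, 25.2 and 5.14 in the spheres and 171, 26.6 and 6.26 in the reverted cells. Of the adipocyte list 4 genes were compared, 0 of them higher and 2 lower. OP9 cells can turn into fat cells, and their part in the storage genes' values was not tested.

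**Figure D3:**
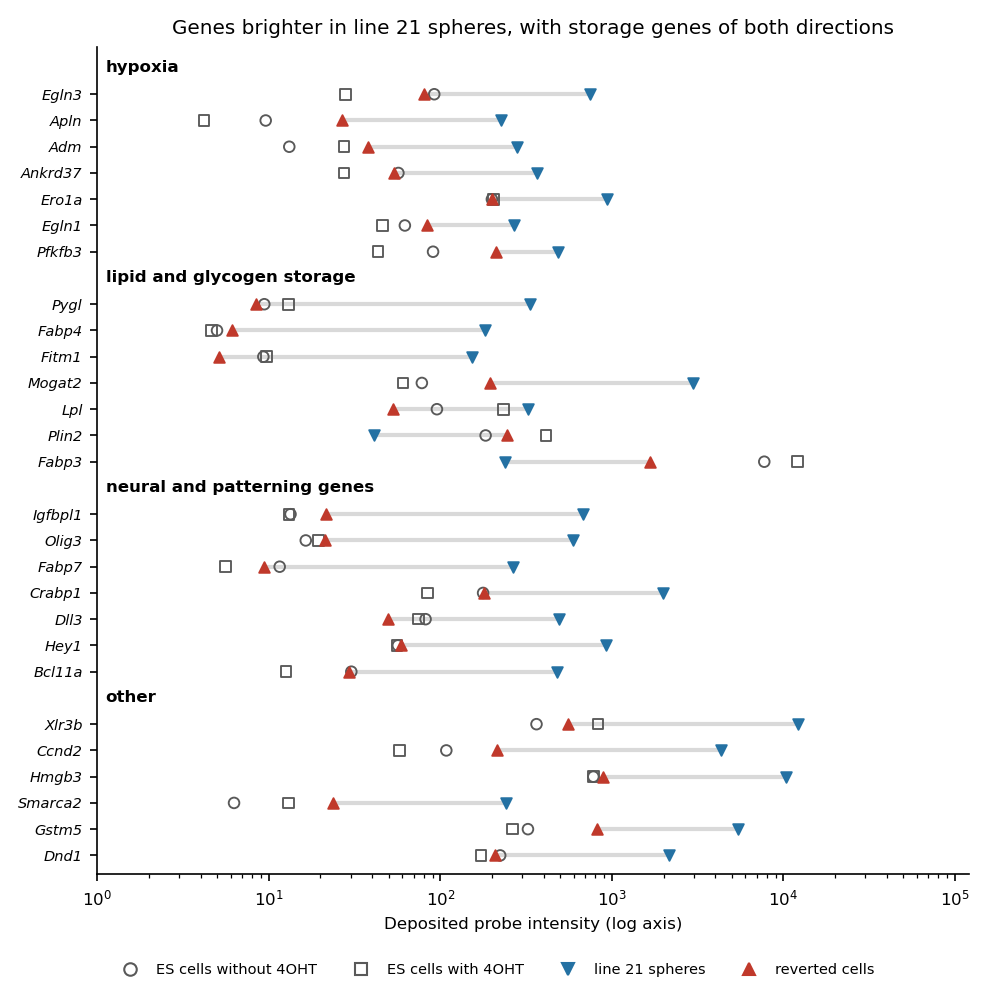
Deposited probe intensity (log axis) on the 4 line 21 arrays for hypoxia genes, storage genes, neural and patterning genes and others that were bright in spheres, with a symbol for each array; the grey bar joins spheres and reverted cells. The spheres stand alone on the bright side for Egln3, Pygl, Olig3 and Xlr3b, while Plin2 and Fabp3 show the reverse, with spheres on the dim side.

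Among the 15 genes lowest in the reverted cells relative to the spheres were Olig3, Igfbpl1, Fabp7 and Bcl11a. Olig3, a factor of the dorsal neural tube, read 594 in the spheres and 21.1 in the reverted cells, beside 16.4 and 19.5 in the ES cells. Igfbpl1 read 674 and 21.5, and Fabp7, the fatty acid binding protein of neural progenitors, read 266 and 9.43. Bcl11a, a zinc finger factor of blood and brain, read 479 and 29.2. In each case the reverted cells and the ES cells read close together and far under the spheres.

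Crabp1, which binds retinoic acid, read 1997 in the spheres and 179 in the reverted cells, beside 177 and 84.4 in the ES cells. The Notch pathway genes Hey1 and Dll3 read 927 and 490 in the spheres and 59.2 and 49.4 in the reverted cells. The homeobox genes Irx3 and Irx5 read 65.5 and 65.0 in the spheres and 4.99 and 4.71 in the reverted cells. These 5 genes were singled out after their values were seen. Isl2 and Gad2, of motor and inhibitory neurons, read 85.6 and 68.5 in the spheres and had no value on the other 3 line 21 arrays.

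Of 10 neuroectoderm genes 1 was higher (Stmn2, by 1.83) and 3 lower (Fabp7, Tubb3 and Sox11), with Neurod1 at 0.92 and Zic1, Hes5 and Pax2 between -0.27 and 0.26. In the other layers, of 15 mesoderm genes 0 were higher and 3 lower (20%), which were Mesp1, Lhx1 and Msx2. Of 8 blood and endothelium genes 0 were higher and 3 lower (37.5%), which were Gata2, Lmo2 and Myb. Gata2, a factor of blood progenitors, read 181 in the spheres and 43.1 in the reverted cells. Of the 4 blood markers on the array, Ptprc, Tal1 and Itga2b stayed under 11 in both cultures. Among 8 endoderm genes 4 were higher and 1 lower, with Gata6 at 17.7 in the spheres and 96.0 in the reverted cells and Apoe at 2604 and 11524. Of the trophectoderm genes 3 of 10 were higher (30%) and 3 lower (30%), among them Gata3 and Tead4 by 1.47 and 1.83 and Plac1 by -1.67.

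Other genes that were bright in the spheres act in growth control and chromatin. Ccnd2 (cyclin D2), which starts the cell cycle, read 4300 in the spheres and 214 in the reverted cells, a difference of -4.37, beside 108 and 57.9 in the ES cells. Of the other 36 cell cycle genes compared, E2f1 was lower by -1.23, Mki67 lay at the 2-fold line and Ccne1 (cyclin E1) was higher by 1.93, and 33 stayed under 2-fold. Smarca2 (Brm), an ATPase of the BAF chromatin remodelling complex, read 240 in the spheres and 23.7 in the reverted cells, beside 6.27 and 13.0. Hmgb3, a chromatin protein singled out after its values were seen, read 10290 and 890, beside 779 and 784. For these 3 genes the spheres were the brightest of the 4 arrays by a wide margin.

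Xlr3b, an imprinted gene of the X chromosome, read 12143 in the spheres and 553 in the reverted cells, beside 363 and 830 in the ES cells. With it counted, 6 of 19 imprinted genes were higher (31.6%) and 4 lower (21.1%). Peg3 and Ndn, expressed from the paternal copy, and Copg2 were lower by -1.84, -1.21 and -1.77, yet for Peg3 and Ndn the reverted cells, at 241 and 290, stayed above the ES cells without 4OHT, at 37.9 and 84.6. Igf2, Slc38a4, Plagl1 and H19 were higher by 2.52, 2.21, 1.94 and 1.30. Cdkn1c, a cell cycle inhibitor, was empty in the spheres and read 20.0 in the reverted cells, against 1367 and 3171 in the ES cells.

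Among 20 DNA methylation genes 7 were at least 2-fold higher in the reverted cells (35%) and 2 lower (10%). The median was 0.58, which read 0.24 without a filter on dim probes. Dnmt3l, the cofactor that guides new methylation in germ cells, read 176 in the spheres and 3289 in the reverted cells, a difference of 4.16, beside 4218 and 5530 in the ES cells. The methyltransferases Dnmt3b and Dnmt3a were higher by 1.10 and 1.02, with Dnmt3a at 154 in the spheres and 324 in the reverted cells. The call for Dnmt3a was lost with a pseudocount of 16 and with centring on the 4 line 21 arrays. Gadd45a and Trim28 differed by 1.88 and 1.17, and Uhrf2 and Mbd1 by -1.38 and -1.36. Of 37 Polycomb and remodelling genes 3 were higher (8.11%) and 6 lower (16.2%), beside 9.41% and 7.58% of all genes. Their median was 0.02.

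Interferon and antigen-processing genes were brighter in the reverted cells. Of 15 compared, 9 were at least 2-fold higher and 1 lower, with a median of 1.18. Cxcl10, a chemokine made on interferon exposure, read 11.96 in the spheres and 447 in the reverted cells, a difference of 5.06, beside 11.8 and 13.4 in the ES cells. Gbp2, a guanylate-binding protein, read 9.63 and 373, beside 29.7 and 13.2. Psmb8, a catalytic subunit of the immunoproteasome, read 18.3 and 421, beside 80.1 and 14.2. For these 3 genes the reverted cells were the brightest of all 4 arrays.

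Oas1a, Ifi35, Stat2, Psmb9, B2m and Irf1 were also higher, by 2.83, 1.67, 1.31, 1.25, 1.18 and 1.09, and Ifi27 was lower by -1.25. Oas1a, at 304 in the reverted cells, read close to the ES cells at 266 and 245. Psmb10, the remaining subunit of the immunoproteasome, read 72.5 in the spheres and 1214 in the reverted cells, beside 268 and 58.7 in the ES cells. Of 36 proteasome subunits compared, Psmb8, Psmb9 and Psmb10 were at least 2-fold higher and 0 were lower, beside 9.41% and 7.58% of all genes. The other subunits stayed under 2-fold, and the family's median difference was 0.26. Gbp2b read 22.0 and 460, beside 49.0 and 29.7. Psmb10, Gbp2b and the proteasome as a family were looked up after the values were seen. Rsad2, Irf9, Irf7, Tap1 and Bst2 were bright enough to compare and stayed under 2-fold, at -0.42, 0.04, 0.08, 0.65 and 0.83. Several other interferon genes stayed dim: Mx1, Mx2, Usp18, Ifit3 and Ifih1 read under 28 on both arrays, and Ifit1 was empty on both.

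Markers of fibroblasts and stroma were examined because the spheres had been grown on OP9 cells and the reverted cells on embryonic fibroblasts. In bulk RNA, fewer cells of a type and less RNA per cell cannot be told apart. The 12 markers fixed for this check summed to 2310 in the spheres and 2383 in the reverted cells, and to 3205 and 2859 in the ES cells, which had no feeders. None was empty on any of the 4 arrays. Of the 9 compared, 3 were higher and 2 lower. Vim alone read 1597 in the spheres and 567 in the reverted cells, beside 1870 and 1768 in the ES cells. Tagln and Acta2 read 16 and 80.7 in the spheres and 665 and 606 in the reverted cells. The near-equal sums thus join opposite differences and do not measure the share of feeder cells. The collagens Col1a1, Col1a2 and Col3a1, which define fibroblasts, read 17.5, 101 and 19.8 in the spheres and 36.0, 102 and 29.7 in the reverted cells, while Dcn, Lum and Postn stayed under 27 on both arrays.

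In the wider list of 29 stromal genes compared, 5 were higher and 5 lower, with a median of 0.29, which read 0.03 with the stricter filter. Tagln, an actin-binding protein of contractile cells, read 16 in the spheres and 665 in the reverted cells, a difference of 5.24, beside 148 and 82.7 in the ES cells. Acta2, smooth muscle actin, read 80.7 and 606, beside 476 and 415. Thy1, a surface protein of fibroblasts, read 24.8 and 230, beside 464 and 331. Acta2 and Thy1 were thus bright in feeder-free ES cells too, whereas Tagln was brightest in the reverted cells.

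Mgp, a matrix protein that inhibits calcification, stood at the other end, with 328 in the spheres and 4.43 in the reverted cells, a difference of -5.97, beside 4.84 and 5.21 in the ES cells. Serpinf1, a secreted factor of mesenchymal cells, read 301 and 54.7, and Cxcl12, the stromal chemokine, read 109 and 48.9. Vim, an intermediate filament protein, read 1597 and 567. Sparc and Col5a2 were higher in the reverted cells, by 1.71 and 1.25, and Col6a1 lower by -1.73. The part of remaining OP9 cells or embryonic fibroblasts in these values and in the interferon genes was not tested.

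**Figure D4:**
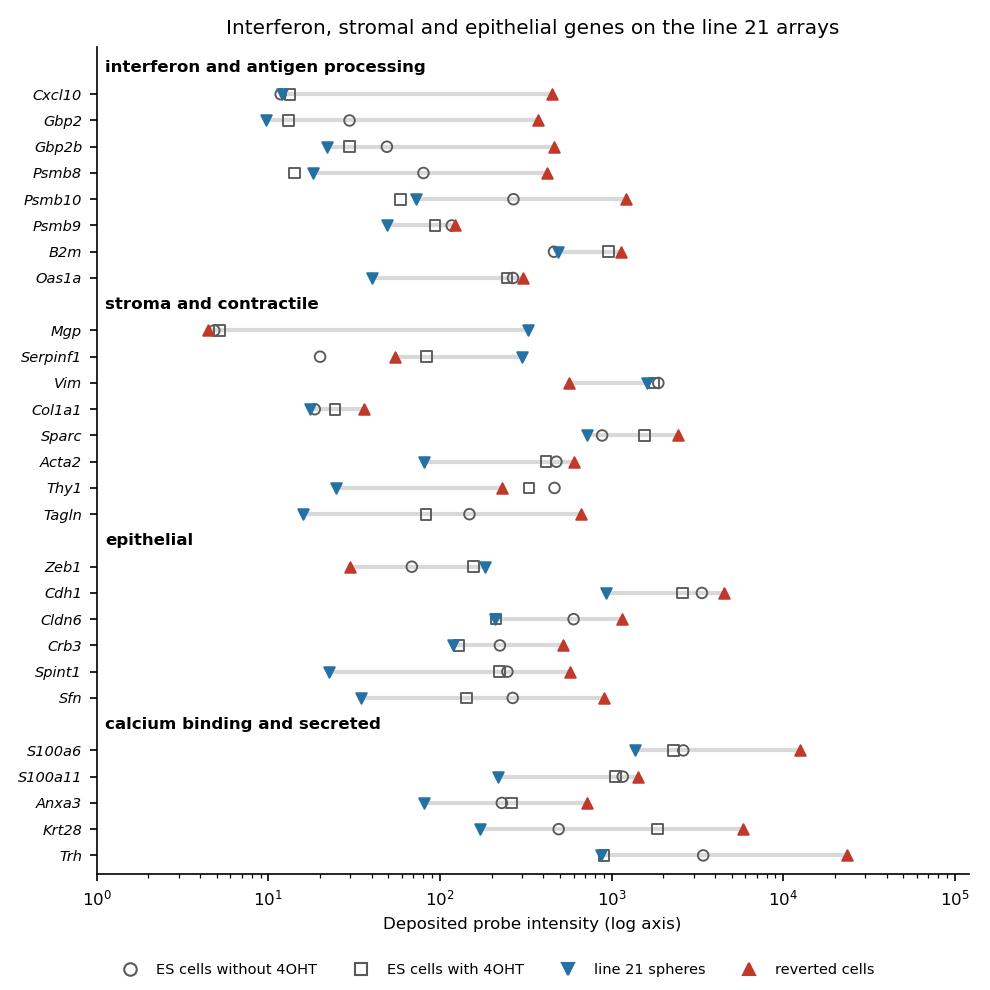
Deposited probe intensity (log axis) on the 4 line 21 arrays for interferon, stromal, epithelial, calcium-binding and secreted gene groups, with a symbol for each array; the grey bar joins spheres and reverted cells. Reverted cells stand alone on the bright side for Cxcl10, Gbp2, Psmb8, Tagln and Trh, the spheres for Mgp, and the collagen Col1a1 stays dim throughout.

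Of 19 genes on the epithelial and mesenchymal list 7 were at least 2-fold higher in the reverted cells and 2 lower, with a median of 0.39. Cdh1 (E-cadherin) read 930 in the spheres and 4484 in the reverted cells, beside 3354 and 2586 in the ES cells. The junction proteins Cldn6 and Crb3 read 209 and 119 in the spheres and 1154 and 523 in the reverted cells. The repressor Zeb1, which shuts off epithelial genes, read 184 in the spheres and 30.0 in the reverted cells, beside 68.5 and 157. Zeb1 and Vim were the only members on the low side. Integrins and laminins, by which ES cells attach, showed 5 of 14 higher and 0 lower, with Itga6 at 18.9 in the spheres and 78.8 in the reverted cells.

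Small chaperones were brighter in the reverted cells. Hspb1 (Hsp27) read 790 in the spheres and 18423 in the reverted cells, a difference of 4.49, beside 24010 and 29223 in the ES cells. Cryab read 15.2 and 291, a difference of 4.12, beside 55.1 and 97.3, and Hspb8 read 280 and 862. The other 15 of the 18 heat shock genes stayed under 2-fold, and the list's median was -0.01. Of the p53 targets 4 of 19 were higher (21.1%) and 0 lower. Of 14 apoptosis genes 2 were higher (14.3%), Pmaip1 and Mcl1, and 0 lower. Pmaip1 (Noxa), which promotes cell death, read 4.72 in the spheres and 78.9 in the reverted cells, beside 260 and 310, and Perp read 437 and 2241. Cdkn1a (p21), the best known p53 target, differed by -0.24.

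The stress, detoxification and sterol lists are given beside the shares past 2-fold over all genes, 9.41% higher and 7.58% lower. Of 25 genes of the endoplasmic reticulum and amino acid stress list 5 were higher (20%) and 3 lower (12%). Cth, of cysteine synthesis, read 364 in the spheres and 1783 in the reverted cells, and Vldlr, a lipoprotein receptor induced by stress, read 386 and 33.7. Of 22 glutathione genes 2 were higher (9.09%) and 3 lower (13.6%). Gstm5, a glutathione transferase, read 5431 in the spheres and 815 in the reverted cells, beside 324 and 263 in the ES cells. Of 23 cholesterol synthesis genes 0 were higher and 3 lower (13%), with the sterol reductase Tm7sf2 at 949 and 112.

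Further genes at the top of the ranking belong to no list. Rps4l, a transcribed pseudogene of ribosomal protein S4 in RefSeq, showed the largest difference of all, 8.13, with 38.1 in the spheres and 11316 in the reverted cells, beside 15508 and 15352 in the ES cells. Genes of ribosomal proteins have many near-identical copies, so which copy the probe read is uncertain. Pla2g1b, a secreted phospholipase, read 35.5 and 3051, beside 3849 and 3449, although another probe of the gene differed by only 0.38. Mylpf, a muscle myosin light chain, read 76.9 and 3377, beside 3008 and 9139. Tgm1, Fmr1nb, Fam25c and Acsbg3 were higher by 5.50, 5.52, 5.17 and 5.10, and all 4 were also bright in the ES cells.

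On the low side, 3830403N18Rik read 296 in the spheres and 4.53 in the reverted cells, and Rflna, an actin regulator, read 272 and 11.9. Pla1a, a phospholipase, and Orc6, a part of the complex that marks origins of replication, differed in another way. Pla1a read 112 in the spheres and 3.68 in the reverted cells, beside 196 and 360 in the ES cells. Orc6 read 3073 and 186, beside 4375 and 6069. For both genes the reverted cells were the dimmest of the 4 arrays.

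A gene empty on 1 array has no fold. In the reverted cells 729 genes had a value that were empty in the spheres, 10 of them at or above the deposited median of 50, and 524 were listed in the spheres and empty in the reverted cells, 2 of them at or above 50. The brightest of the first kind were Gpx2, a glutathione peroxidase of epithelia, at 439, Triml1 at 180, Tspan8 at 153, Rhox13 at 139 and Gsta3 at 112. All 5 had values in both ES cell arrays. The 2 of the second kind were Isl2 and Gad2.

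**Figure D5:**
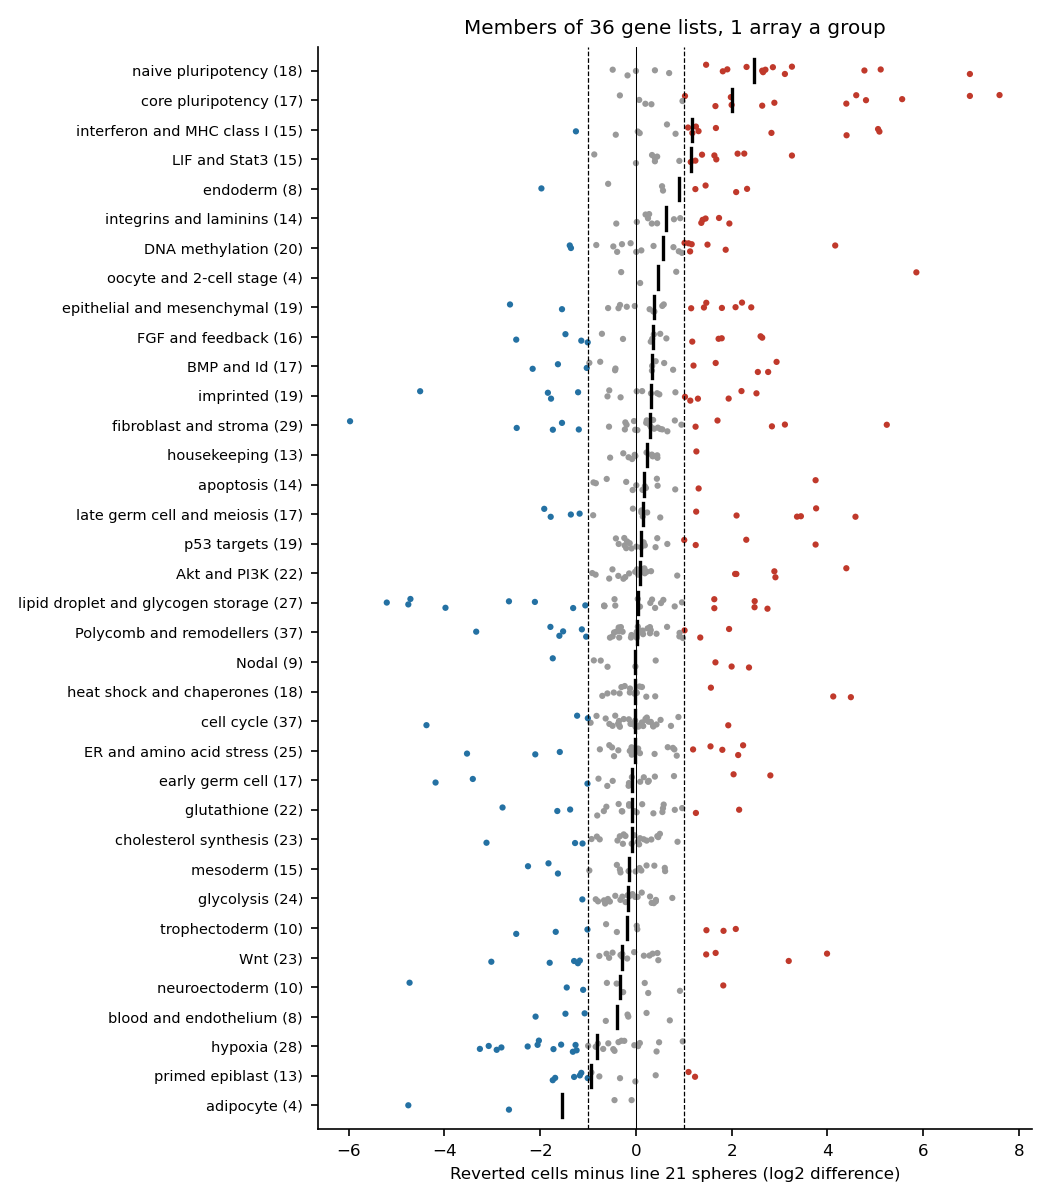
Log2 difference between reverted cells and line 21 spheres for every member compared of the 36 gene lists (x axis), with the number compared in brackets; black bars are list medians and dashed lines mark 2-fold. Naive and core pluripotency lists have the highest medians (2.48 and 2.00), and the adipocyte, primed epiblast and hypoxia lists the lowest (-1.55, -0.93 and -0.82), where the adipocyte median rests on 4 genes and read -0.46 with empty cells filled in.

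The labelled cell types were set against the markers fixed for them. Of 8 ES cell markers 7 were at least 2-fold higher in the reverted cells and 0 lower, and they summed to 38710 there, beside 10150 in the spheres and 43670 and 39220 in the ES cells. The exception was Nanog. Of the 6 germ cell markers compared 1 was higher (Dppa3) and 2 lower (Kit and Tfap2c). The 7 markers on the array summed to 3294 in the spheres and 3512 in the reverted cells, beside 2004 and 1368 in the ES cells. Tfap2c, at 1943, was the largest part of the sum in the spheres, and Dppa3, at 1626, in the reverted cells. Of the 13 housekeeping genes compared only the transferrin receptor Tfrc lay past 2-fold, by 1.26, with a list median of 0.22. Over 10012 genes the reverted array had a Pearson correlation of 0.958 with ES cells without 4OHT, 0.943 with ES cells with 4OHT and 0.912 with the spheres. These are correlations across genes, which are not independent replicates, and all share the platform and its probes. The 10012 genes were those bright enough on the sphere or reverted array that had a value on all 4 line 21 arrays. Genes bright only in the ES cells, such as Khdc3, were therefore left out of the correlations.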

How the data were processed

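RNA of 5 mouse cultures was measured on 1-colour arrays (dye Cy5, amplified amino allyl RNA, array maker Toray, per the labels' protocols). The values are linear probe intensity values as deposited by the authors for 22871 probes an array. The scanner, background correction, scaling and rule for empty cells (1392 to 2084 an array) are each not given in the sources used. The number of arrays limits the precision.

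Probes were named through the platform annotation (16264 with 1 symbol, 0 with several, 6607 with none), and old symbols were updated through the RefSeq gene table of GRCm38.p6. Where a gene had several probes, the one brightest on average over the 4 line 21 arrays stood for it. Values were taken to log2(intensity + 1), centred on the 18884 probes listed on all arrays, and compared where a gene was listed on both arrays and bright enough on 1 or both, at the 40th percentile or above (an intensity of 28.7 to 29.2). Folds understate the difference of dim probes. The difference and its counts were tested on simulated data. Python 3.11.15, pandas 2.3.3, numpy 2.4.6 and matplotlib 3.10.9 were used.

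The groups come from the labels, which name no hybridisation batch and no repeat cultures. Members and lists were chosen with earlier results of these data known. Named were the 15 largest differences each way, up to 5 members a list and direction past 2-fold, 30 fixed genes, up to 5 genes a direction that were empty on 1 array, and any other probe of these on the opposite side. Members named at under 2-fold, and all genes outside these rules, were chosen after their values were seen. Some pluripotency genes were not analysed here. Promoters are the first listed start of a gene. The alternatives were 2 pseudocounts, no centring, centring on line 21, quantile scaling, 2 filters, probe means and filled empty cells.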

Additional observations from a re-analysis of the deposited data

How the results depend on the processing

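No paired analysis was possible because each group has 1 array, and for the same reason no replicate could be left out. Across the 9 alternatives the count of genes at least 2-fold higher in the reverted cells ran from 654 to 1129 (944 as reported) and that of lower genes from 505 to 1023 (761). The count that left a range of 1.5 times was that of lower genes with the filter at the 60th percentile, 505, where 6996 in place of 10034 genes were compared. No direction reversed among the 205 named genes compared. All 205 kept their side of 2-fold with pseudocount 0, without a filter and with probe means, 204 with empty cells filled, 203 with quantile scaling, 202 with line 21 centring and 201 without centring. With pseudocount 16, 25 lost their 2-fold call, Tfap2c, Fgf5, Dnmt3a and Esrrb among them, and the stricter filter left 43 uncompared. Without centring the median of all genes read 0.06. The median ran from -1.24 to -0.68 for the hypoxia list, from 0.80 to 1.23 for the interferon list from 2.08 to 2.68 for the naive list, from -2.65 to -0.46 for the adipocyte list, from 0.24 to 0.77 for the DNA methylation list, from 0.03 to 0.34 for the stroma list, from 0.12 to 0.36 for the late germ cell list and from -0.66 to 0.09 for the storage list. Dim probes limit what can be seen. Genes under an intensity of 100 on both arrays numbered 3239, of which 17.9% were 2-fold apart. The share was about the same, 17.7%, in the 5024 genes whose brighter array read from 100 to under 1000. It was 13.3% in the 1771 genes that reached 1000.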

Other observations

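The values here concern gene groups that belong to no list and were picked after they were seen. Over all genes compared, 9.41% were at least 2-fold higher and 7.58% lower. Among 10 S100 genes compared, which encode small calcium-binding proteins, 5 were at least 2-fold higher in the reverted cells and 0 lower, and among 8 annexins, which bind membranes in the presence of calcium, 5 were higher and 0 lower. S100a6 read 1368 in the spheres and 12535 in the reverted cells, beside 2613 in ES cells without 4OHT and 2296 in those with it. S100a11 read 219 and 1422, beside 1160 and 1049, and Anxa3 read 80.7 and 719, beside 229 and 260. S100a6 and Anxa3 were brightest in the reverted cells, whereas S100a11 lay at the level of the ES cells.

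Trh, which encodes thyrotropin-releasing hormone, read 862 in the spheres and 23511 in the reverted cells, beside 3413 and 904 in the ES cells. The keratin Krt28 read 171 and 5804, beside 491 and 1843. The epithelial genes Sfn (stratifin) and Spint1, a protease inhibitor, read 34.8 and 22.6 in the spheres and 905 and 569 in the reverted cells, beside 265 and 247 in ES cells without 4OHT. For all 4 genes the reverted cells were the brightest of the line 21 arrays.

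Ribosomal protein genes held a few large differences among many small ones. Of 56 compared, 3 were at least 2-fold higher in the reverted cells and 0 lower, with a median of 0.19. Besides Rps4l these were Rpl10, which read 8.24 in the spheres, 241 in the reverted cells and 3696 and 7892 in the ES cells, and Rpl39l, which read 33.7, 208, and 7387 and 11706. Near-identical copies make the source of these signals uncertain. Of 76 mitochondrial ribosomal protein genes 1 was higher and 3 lower, and of 87 genes of the respiratory chain and ATP synthase 2 were higher and 4 lower, with medians of -0.05 and -0.03.

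Of 11 Hox genes compared 0 were higher and 3 lower, Hoxa2, Hoxc6 and Hoxa10, each under an intensity of 75 in the spheres. Stc1, a secreted glycoprotein, read 337 in the spheres and 24.2 in the reverted cells, and Cpeb1, which controls translation in germ cells, read 1449 and 184, beside 70.9 and 50.8 in the ES cells. Tmsb4x, an actin-binding peptide, and the gap junction protein Gja1 stood opposite, at 1160 and 1025 in the spheres and 13560 and 7137 in the reverted cells.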
